A study of Mus musculus with 4 samples.

Results

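The response to lipopolysaccharide (LPS) was described in RAW 264.7 cells, a mouse macrophage line, that carry the Hnrnpul1-/- genotype. It was taken as the log2 ratio of the LPS-treated to the untreated knockout library, for every gene with a mean of at least 1 CPM (a read count scaled for library size) over the 4 libraries of the series. That rule kept 11640 of 54532 listed genes, 10334 of them protein-coding. The series held 1 library in each of 4 groups: wild type untreated (WT), Hnrnpul1-/- untreated (KO), and wild type and Hnrnpul1-/- given LPS at 100 ng/ml for 10 h (WT_LPS, KO_LPS). All came from the same macrophage line. The labels do not say whether the knockout line was 1 clone. Total counts ran from 17045432 to 17909549.

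LPS is a component of the outer membrane of Gram-negative bacteria. It is sensed at the macrophage surface by TLR4 with CD14 and MD-2. Adaptors carry the signal along a MyD88 branch, which activates NF-kB and AP-1 and induces inflammatory cytokines, and a TRIF branch, which activates IRF3 and induces interferon-beta; interferon then acts through its receptor on antiviral genes. The product of Hnrnpul1 binds RNA and resembles hnRNP U, a nuclear RNA-packaging protein.

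With 1 library per group no comparison below has a replicate check or a test. Intervals in brackets after a ratio are exact 95% counting intervals, which cover counting error only. Those of a difference between genotypes are approximate 95% counting intervals, and are rough where a library has few reads. "Higher" or "rose" and "lower" or "fell" are used of genes at least 2-fold different between KO and KO_LPS whose interval excluded no change. Where a library had 0 reads of a gene, 3 reads stood in for them, and the fold is then written as "at least"; that fold is taken against 3 reads and does not carry the counting error of the other library. Levels are TMM-scaled CPM, which grow with gene length. A gene near 0 before LPS passed the filter only through the LPS libraries, where it was high, so for lists of such genes the counts and medians over measured members are descriptions set in part by the filter.

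Hnrnpul1 itself had 5086, 447, 3114 and 350 reads in WT, KO, WT_LPS and KO_LPS. The reads that remained in the knockout were not called with LPS, at a log2 ratio of -0.09 (-0.29 to 0.12). All 10 macrophage markers examined were measured, and their summed level was 3825 CPM in KO and 6944 CPM in KO_LPS. In WT and WT_LPS the sum was 4318 and 9806 CPM. The summed level of the markers of each of 9 other cell types was at most 3.17 CPM in the knockout libraries, and all 5 epithelial markers were at 0 reads there. The 5 macrophage markers that rose were Adgre1, Itgam, Cd14, Fcgr1 and Mpeg1, and 0 fell. Csf1r, Tyrobp, Cd68 and Spi1 were among those not called, at log2 ratios of -0.61, -0.63, -0.27 and 0.47. Adgre1, which encodes the surface protein F4/80, went from 21.3 to 217 CPM.

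LPS moved about as many genes up as down in the knockout. Of the measured genes, 1345 (11.6%) were higher, 1398 (12%) were lower and 8897 were not called. In wild type 1309 (11.2%) were higher and 1180 (10.1%) lower. The sizes differed more than the counts: 207 genes rose and 29 fell by at least 4 on the log2 scale, and 91 rose and 0 fell by at least 6. However, 166 of the higher genes had at most 10 reads in KO, and 132 of the lower ones at most 10 in KO_LPS. With so few reads the size of a ratio is poorly resolved. The median ratio was 1.8 among higher genes, -1.51 among lower genes and -0.02 over all measured genes. List counts below are to be read against the 11.6% higher and 12% lower of all measured genes. In several lists the lower count was near that share. Genes called higher took 7.23% of all counts in KO and 23.5% in KO_LPS, while genes called lower took 7.23% and 2.02%. The balance depends on the scaling: with total counts in place of TMM every ratio was lower by 0.31, and 989 genes were higher and 2156 lower, so that 31.4% of calls were higher against 49.0% here.

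**Figure D1:**
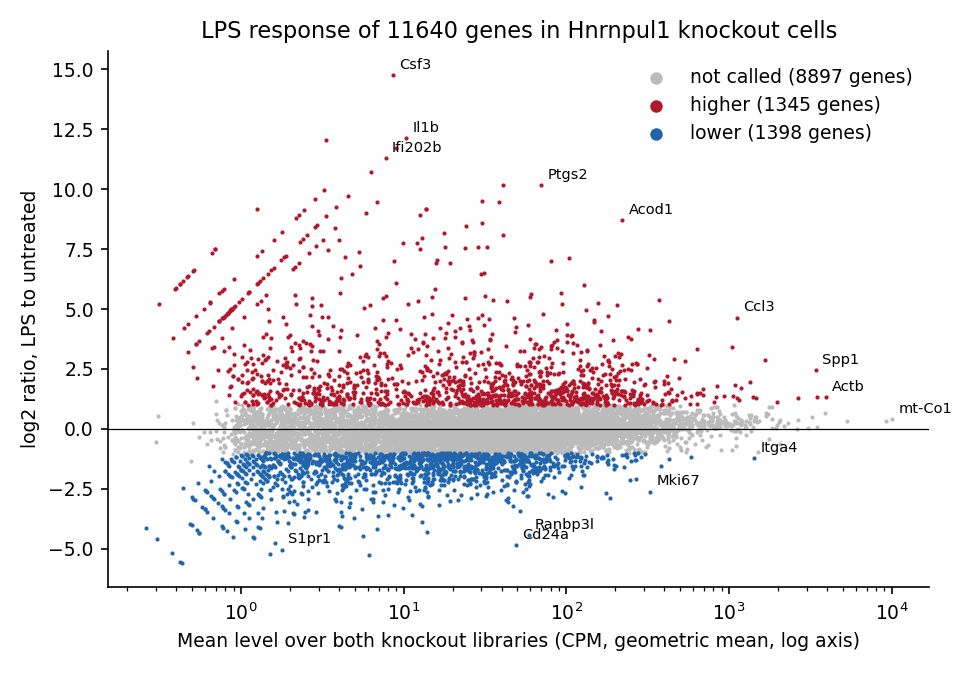
Each point is 1 of the measured genes, with its geometric mean level over KO and KO_LPS in CPM on a log axis against its log2 ratio of LPS to untreated. Red points are the 1345 genes called higher, blue the 1398 called lower and grey the 8897 not called; the higher genes reach a log2 ratio of 14.75 (Csf3).

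Promoters of several genes that moved are shown first, for the short motifs searched in them. Each stretch is 60 bases, written 5′ to 3′ on the gene's strand and ending before the RefSeq start (GRCm38.p6). Capitals mark matches to a reduced interferon-stimulated response element (ISRE, a motif bound by IRF factors), searched as GAAANNGAA on both strands. The genes were picked by hand after their ratios were known. Among 34 interferon-response genes with a promoter that were examined, 23 held a match. Here and in the shares below, each gene was given the RefSeq promoter of its symbol nearest its deposited start, with no limit on distance. The promoter used lay 62304 bases from that start for Mndal and 2956 for Gbp5, and both are among the 23.
Ifit1: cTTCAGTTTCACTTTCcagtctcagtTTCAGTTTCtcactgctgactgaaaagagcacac
Ifit3: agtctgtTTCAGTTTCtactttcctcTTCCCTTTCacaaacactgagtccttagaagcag
Ifit3b: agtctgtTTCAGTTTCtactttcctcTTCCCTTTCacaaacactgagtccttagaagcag
Gbp2: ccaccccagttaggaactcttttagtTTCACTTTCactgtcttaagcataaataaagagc
Gbp3: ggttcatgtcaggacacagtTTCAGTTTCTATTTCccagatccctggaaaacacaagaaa
Ifi208: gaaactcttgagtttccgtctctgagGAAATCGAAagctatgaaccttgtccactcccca
Ifi211: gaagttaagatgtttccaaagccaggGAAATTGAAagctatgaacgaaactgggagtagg
Isg15: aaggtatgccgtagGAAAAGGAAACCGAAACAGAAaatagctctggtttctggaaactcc
The positions are Ifit1 chr19:34640779-34640838 (plus strand), Ifit3 chr19:34583401-34583460 (plus strand), Ifit3b chr19:34607797-34607856 (plus strand), Gbp2 chr3:142620579-142620638 (plus strand), Gbp3 chr3:142559980-142560039 (plus strand), Ifi208 chr1:173673581-173673640 (plus strand), Ifi211 chr1:173913050-173913109 (minus strand), Isg15 chr4:156200851-156200910 (minus strand). The stretches of Ifit3 and its neighbour Ifit3b are letter for letter the same, and reads from such near-identical genes may have been split or dropped in counting. Among the genes examined, Ifi208 and Ifi213 also share the same 60 bases, and the promoters of Ifit1 and Ifit1bl2 overlap on opposite strands. Matches in such genes are thus not separate from each other. No match was found in the 300-base promoters of Ifit2, Ifi202b, Ifi209, Slfn1, Slfn2, Slfn4, Oasl1, Irf7, Ifi203, Tap1 and Psmb9, all of which rose.

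For NF-kB, the factor released when its inhibitor is degraded after TLR4 signalling, the motif searched was GGGANTTTC on both strands. It was found in 3 of 15 inflammatory promoters examined, which are shown because they carry the match.
Il6: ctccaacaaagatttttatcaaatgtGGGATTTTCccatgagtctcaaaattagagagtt
Cxcl2: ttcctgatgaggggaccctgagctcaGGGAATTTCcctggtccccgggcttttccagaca
Nfkbia: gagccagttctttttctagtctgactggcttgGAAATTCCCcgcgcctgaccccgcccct
They lie at Il6 chr5:30013044-30013103 (plus strand), Cxcl2 chr5:90903776-90903835 (plus strand), Nfkbia chr12:55492648-55492707 (minus strand). The other 12, among them Tnf, Il1b and Ptgs2, had no match to these letters in 300 bases.

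Promoters of genes that fell are shown for the cell-cycle homology region (CHR), a motif through which genes of mitosis are repressed outside the cycle, searched as TTTGAA on both strands. Of 12 mitotic promoters examined, 9 held a match, 6 of them before the start.
Cdc20: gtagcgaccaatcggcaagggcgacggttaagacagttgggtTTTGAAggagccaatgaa
Cdk1: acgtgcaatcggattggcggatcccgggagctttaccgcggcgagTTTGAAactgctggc
Mki67: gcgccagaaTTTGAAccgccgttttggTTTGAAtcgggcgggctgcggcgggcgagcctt
Kif11: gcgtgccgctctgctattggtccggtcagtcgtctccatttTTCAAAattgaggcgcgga
They lie at Cdc20 chr4:118437344-118437403 (minus strand), Cdk1 chr10:69352913-69352972 (minus strand), Mki67 chr7:135716445-135716504 (minus strand), Kif11 chr19:37376322-37376381 (plus strand). Mki67 holds 2 matches within its 60 bases.

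Over protein-coding genes, 15.4% of 940 promoters of higher genes held the ISRE letters, against 6.63% of 1026 promoters of lower genes, 6.36% of 6387 promoters of genes not called and 8.56% of all 32851 promoters of that length in the table. The AP-1 letters TGANTCA were in 9.26% of higher, 4.09% of lower and 3.90% of not called genes, and in 7.81% of all promoters. The NF-kB letters were rare, at 1.81%, 1.17%, 0.783% and 1.11%. Lower genes held more matches to CHR (19.6% against 12.1% of higher and 10.7% of not called genes, and 17.9% of all promoters) and to E2F, searched as TTTCCCGC and TTTGGCGC (6.53% against 1.17% and 3.32%, and 1.56%). CCAAT, a common promoter element, was in 47.1% of lower, 36.7% of higher and 39.1% of not called genes and 37.4% of all promoters, and the CRE letters TGACGTCA in 2.73%, 2.66%, 3.84% and 1.79%. These shares are descriptions with no test, and a match is not a bound site.

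The gene set behind these shares was chosen after a first set of shares had been seen. The search was planned over all measured genes, of which 73.3% had a promoter by symbol; this is under the 80% set as the least coverage for such a check, so that version is void. Limiting it to protein-coding genes and matching older symbols gave 80.8%, with 80.2% of higher and 82.2% of lower genes, only just over the limit. The ISRE shares in the void version were 15.7% of higher and 6.52% of lower genes. Within lists matched over 80%, the CHR letters were in 82.9% of 35 mitosis promoters, 57.1% of 7 Schlafen, 33.3% of 12 p200 and DNA sensor, 25.9% of 27 IFIT, viperin and related and 0% of 15 NF-kB promoters. The ISRE letters were in 11.4%, 42.9%, 50%, 44.4% and 13.3% of these. The lists of DNA replication genes, interferon-inducible GTPases, OAS genes, CC chemokines, interleukins and double-strand break repair genes, and the genes higher by at least 4 or lower by at least 2 (log2), were matched below 80%, so their shares are void and not given.

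**Figure D2:**
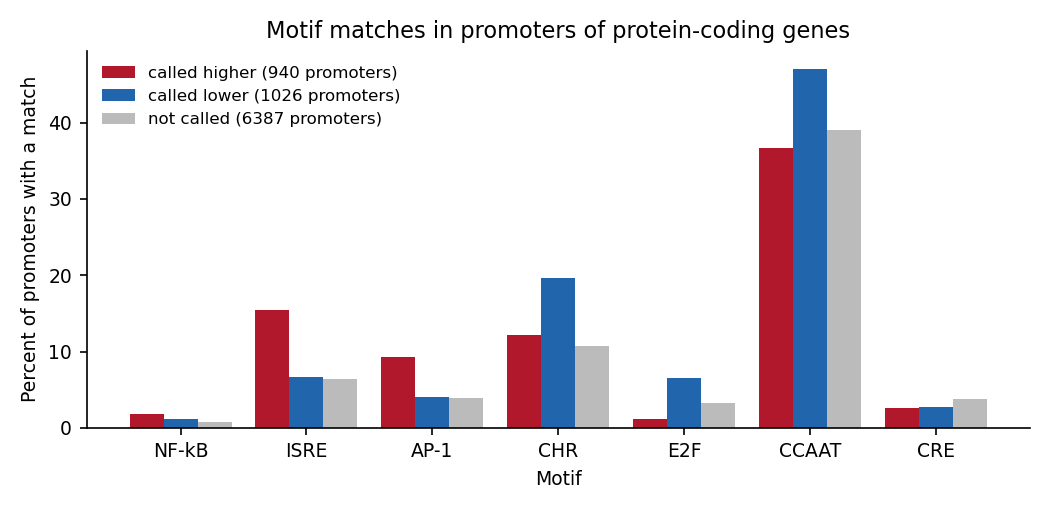
Bars give the percent of promoters (250 bases before to 50 after the start) with at least 1 match to each of 7 motifs, for protein-coding genes called higher (red, 940 promoters), lower (blue, 1026) and not called (grey, 6387). The ISRE and AP-1 bars are tallest for higher genes and the CHR, E2F and CCAAT bars for lower genes.

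The share of genes called changed with abundance. Genes were binned by their geometric mean level over the knockout pair. The bin under 1 CPM is left out here, because a gene low in both libraries did not pass the filter unless wild type or 1 high library carried it, and the filter also bears on the bin from 1 to 2 CPM. Lower calls outnumbered higher ones in each of the 4 bins from 1 to 30 CPM, with 9.0% higher and 14.4% lower among 2555 genes at 10 to 30 CPM. From 30 CPM the order turned on this scale, on which a gene that rose sits higher and a gene that fell sits lower. Of 1786 genes at 100 to 300 CPM, 13.4% were higher and 3.58% lower, and of 86 genes at 1000 CPM or more, 18.6% and 1.16%. The 1 lower gene in that top bin was Itga4, an integrin subunit, which fell from 2184 to 933 CPM. The median width of the counting interval narrowed from 1.8 on the log2 scale at 1 to 2 CPM to 0.05 at 1000 CPM or more. Binned by the KO level alone, lower calls stayed ahead at 30 to 100 CPM, with 295 higher and 369 lower. At 100 to 300 CPM these were 111 and 144, and at 300 to 1000 CPM 26 and 24. The turn at 30 CPM thus depends on the level used for binning.

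**Figure D3:**
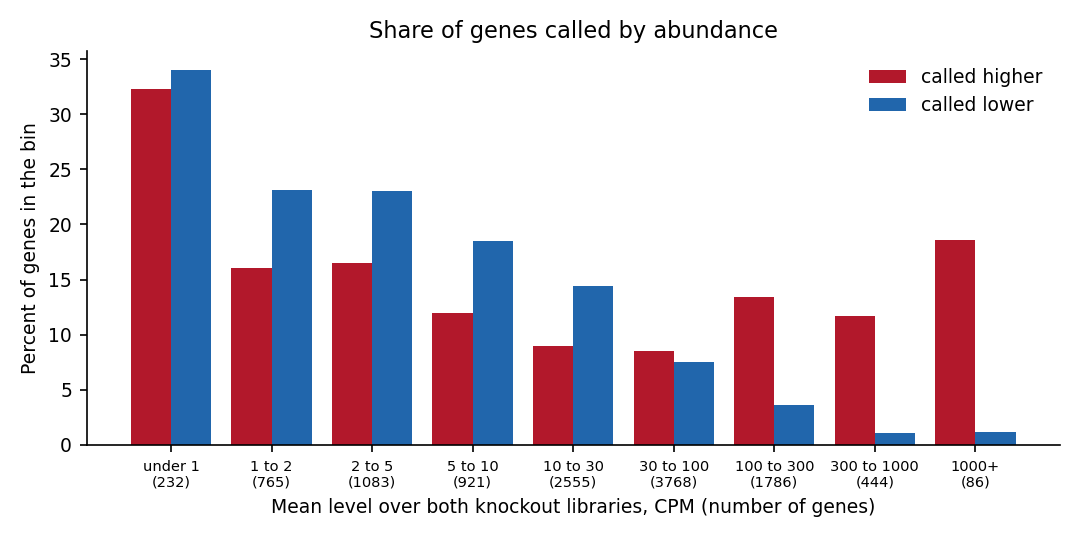
Bars give the percent of genes called higher (red) and lower (blue) in 9 bins of mean level over the knockout pair, in CPM, with the number of genes in each bin under its label. Lower calls are the larger share in the bins from 1 to 30 CPM and higher calls from 30 CPM on; the tall bars under 1 CPM are set in part by the filter on low levels.

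In CPM, which favours long genes, the protein-coding genes that gained most were Spp1, Ccl3, Acod1, Odc1, Actb, Fth1, Rnf213, mt-Co1, Hspa5 and Ptgs2. Spp1, which encodes the secreted phosphoprotein osteopontin, went from 1457 to 7933 CPM, a log2 ratio of 2.44 (2.43 to 2.46). Acod1, the enzyme that makes itaconate from a citric acid cycle intermediate, went from 10.8 to 4511 CPM, a log2 ratio of 8.71 (8.51 to 8.91). Odc1, the first enzyme of polyamine synthesis, went from 613 to 4527 CPM and Fth1, the ferritin heavy chain, from 2163 to 5521 CPM. The mitochondrially encoded mt-Co1 stood on this list with a log2 ratio of 0.42 (0.41 to 0.43), under the 2-fold rule. Per kilobase, mt-Co1 was first in both knockout libraries, and Ccl3, Spp1 and Ccl4, all secreted proteins, stood among the first 10 only in KO_LPS. Ccl3 had 7279 CPM per kilobase in KO_LPS against 7515 for mt-Co1.

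The 10 largest losses in level were mostly partial reductions of abundant genes. Only Itga4, Mki67, Scd2 and Kbtbd11 passed 2-fold; Cst3, Ptma, Ahnak, Tubb5, Serinc3 and Car2 had log2 ratios from -0.97 to -0.43. Mki67, the proliferation marker, went from 811 to 133 CPM, a log2 ratio of -2.61 (-2.67 to -2.54).

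Among the 12 highest ratios of protein-coding genes with a mean of at least 5 CPM were those of Csf3, Il1b, Lcn2, Il1a and Il6. These genes encode secreted or released proteins, and with 0 to 3 untreated reads their order is not resolved. The rest of the 12 were Ifi202b, Ccl5, Ptgs2, Ifi209, Slfn1, Ifi211 and Nos2, of which only Ccl5 encodes a secreted protein. Of 29 interleukin and interferon genes found, 13 were under the filter, and of the other 16, which summed to 53.8 CPM in KO, 15 rose. Csf3, the granulocyte colony-stimulating factor, had 1 and 22925 reads in KO and KO_LPS, a log2 ratio of 14.75 (12.27 to 20.05) whose width comes from the single untreated read. Il1b had 0 and 11186 reads, at least 4485-fold higher, and Il6 had 0 and 4155 reads, at least 1666-fold higher. All 12 genes of a core list of LPS response genes rose, from 2.70 for the NF-kB inhibitor Tnfaip3 upward. Tnf, the early cytokine, was already present untreated and went from 77.8 to 1355 CPM, a log2 ratio of 4.12 (4.05 to 4.20).

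Among the other interleukins, Il1a had 3 and 8289 reads and a log2 ratio of 11.70 (10.15 to 13.98). Il1rn, the antagonist of the IL-1 receptor, went from 1.76 to 214 CPM. Both subunits of IL-27 rose, Il27 from 0.258 to 182 CPM and Ebi3 from 8.93 to 82.9 CPM. Lif had 0 and 1525 reads, at least 611-fold higher. The growth factors Csf1 and Csf2 had log2 ratios of 4.54 and 6.93, and Il16 was the 1 measured member not called, at 0.03. Several well-known members stayed under the filter, among them Ifnb1 with 0 reads in KO and 9 in KO_LPS, Il12b with 0 and 51, and Il10 with 0 and 1. Ifnb1, the interferon of the TRIF branch, had 0 reads in WT and 12 in WT_LPS.

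Chemokines, which recruit other leukocytes, were mostly low before LPS. Of 20 CC members 9 were under the filter and 10 of the other 11 rose; of 17 CXC and CX3C members 13 were under it and the other 4, which summed to 8.83 CPM in KO, rose. Ccl5 went from 1.19 to 1386 CPM, a log2 ratio of 10.19 (9.60 to 10.85), and Ccl2, the monocyte attractant, from 2.48 to 668 CPM. Ccl3, Ccl4 and Ccl9 were expressed before LPS, and went from 224 to 5576 CPM, from 89.5 to 2021 CPM and from 201 to 1999 CPM. Cxcl2, a neutrophil attractant, and Cxcl10, an interferon-induced T cell attractant, had log2 ratios of 9.48 (8.95 to 10.07) and 7.58 (7.01 to 8.21). Ccl25 was not called, at -0.32, and Cxcl1, Cxcl9 and Ccl20 had 0 reads in both knockout libraries. Ccl5, Ccl9, Ccl6, Ccl3, Ccl4 and Wfdc17 formed a run of 6 neighbouring measured protein-coding genes on chromosome 11 (83525778 to 83706268, GRCm38) that all rose.

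**Figure D4:**
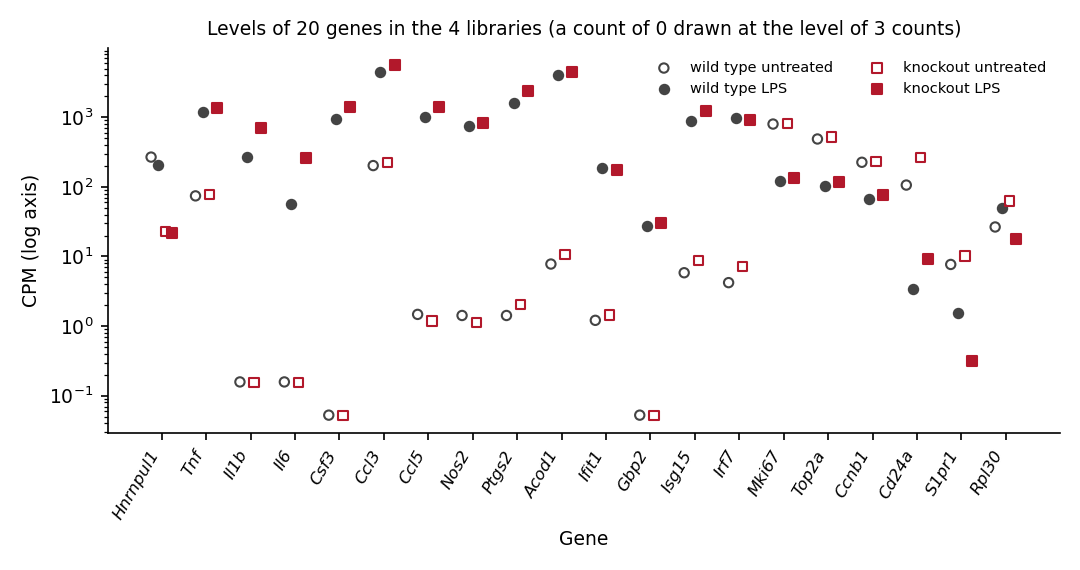
Levels in CPM on a log axis of 20 genes, chosen after their values were seen, in the 4 libraries, with circles for wild type, squares for knockout, open symbols for untreated and filled symbols for LPS; a count of 0 is drawn at the level of 3 counts. Tnf in the knockout lies at 77.8 CPM untreated and 1355 CPM with LPS, and Rpl30 falls in the knockout from 62.9 to 17.9 CPM while in wild type it goes from 26.5 to 49.3 CPM.

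In the TNF family 9 of 20 measured members rose and 0 fell. Cd40, the receptor for a T cell co-stimulatory ligand, went from 0.826 to 204 CPM, and Tnfrsf1b, the second TNF receptor, from 30.5 to 718 CPM, while Tnfrsf1a, the main TNF receptor, was not called at 0.82. Tnf, Lta and Ltb lie in a run of 6 higher genes on chromosome 17 (35170991 to 35235792) with Aif1, Lst1 and Nfkbil1. Of 8 measured complement genes, the anaphylatoxin receptors C5ar1 and C3ar1 went from 9.55 to 235 CPM and from 9.34 to 124 CPM, and the central component C3 and the activator properdin (Cfp) also rose. C2 had 31 and 12 reads, a call that was lost with the interval widened by an assumed coefficient of variation of 0.2 or required to lie wholly beyond 2-fold.

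Of 23 measured receptors for chemoattractants and nucleotides 13 were higher and 4 lower, against 11.6% and 12% of all measured genes. Fpr2, a receptor for formylated bacterial peptides, had 0 and 602 reads, at least 241-fold higher. The niacin receptor Hcar2 and the fatty acid receptor Gpr84 had log2 ratios of 4.29 and 1.96. S1pr1, a receptor for sphingosine 1-phosphate, fell from 10.2 to 0.311 CPM with a log2 ratio of -5.03 (-6.67 to -3.79), and in wild type its ratio was -2.30; the difference between genotypes was -2.74 (-4.16 to -1.31). P2rx7, the ATP-gated channel, fell with a log2 ratio of -1.41 (-1.67 to -1.16). Cx3cr1, the fractalkine receptor, was not called at -0.46.

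Of 27 measured genes of the TLR4 pathway 9 rose and 0 fell. They were the co-receptors Cd14 and Ly96 (MD-2), the TLR4-related receptor Cd180, the adaptor of the TRIF branch Ticam1, the kinases Ikbke, Tbk1 and Irak2, the inhibitory Irak3 and the ligase Peli1. Irak3 went from 8.16 to 64.9 CPM, Ikbke from 36.7 to 330.3 CPM and Cd14 from 675 to 2641 CPM. Myd88 was not called, at 0.86 (0.78 to 0.95). Among 8 measured members of the list of other Toll-like receptors and their chaperone, Tlr3, Tlr1, Tlr6, Tlr9 and the chaperone Unc93b1 rose, and Tlr2, Tlr7 and Tlr13 had log2 ratios of 0.63, -0.29 and -0.14.

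Of 18 measured NF-kB subunits and inhibitors 12 rose and 0 fell: the inhibitor-like Nfkbiz went from 8.88 to 402 CPM, the inhibitor Nfkbia from 99.5 to 650.0 CPM, and the subunits Nfkb1, Nfkb2 and Rel had log2 ratios of 2.0, 2.37 and 2.51. The subunits Rela and Relb were not called, at 0.47 and 0.76. Of 34 measured genes in a list of AP-1, ATF, EGR and C/EBP factors, which also holds Myc, 20 rose and 3 fell (5 with total-count scaling). Myc had 4 and 791 reads and a log2 ratio of 7.89 (6.53 to 9.77), Atf3 went from 23.9 to 316 CPM and Cebpd from 19.0 to 219 CPM. Cebpa, the C/EBP factor of myeloid differentiation, fell from 29.7 to 5.15 CPM, and Egr3 fell from 8.26 to 0.745 CPM.

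Of 11 measured genes in the interferon regulatory factor list, which also holds Irf2bpl, 4 rose and 2 fell. Irf7, the factor that amplifies interferon production, went from 7.12 to 903 CPM, a log2 ratio of 6.99 (6.74 to 7.24); Irf8, Irf1 and Irf9 had ratios of 2.40, 1.81 and 1.75. Irf3, which acts first in the TRIF branch, was not called at 0.05, and Irf4 fell with -1.45. In the STAT, JAK and SOCS list 10 of 23 rose and 0 fell, with Stat2 from 23.9 to 293 CPM and the feedback inhibitor Socs3 from 12.9 to 264 CPM. Among lineage factors Spi1 (PU.1), the master factor of macrophages, was not called at 0.47, and Klf10, Rxra, Tfeb and Klf4 fell.

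In the IFIT, viperin and related list of antiviral genes 29 of 30 measured members rose and 2 more were under the filter, with a median log2 ratio of 3.04. Rsad2 (viperin), which makes a chain-terminating nucleotide, went from 1.29 to 454 CPM, a log2 ratio of 8.46 (7.89 to 9.09), and Ifit1, which binds foreign RNA ends, from 1.45 to 173 CPM. The 6 Ifit genes measured on chromosome 19 (34550694 to 34650009) were a run, at log2 ratios from 5.68 to 7.75. Isg15, the ubiquitin-like modifier, went from 8.73 to 1230.5 CPM, and 7 of 8 measured genes of its conjugation and removal rose.

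Interferon-inducible GTPases act on the membranes of intracellular pathogens and on viral particles. Of 19 found, 3 were under the filter and the other 16, which summed to 48.2 CPM in KO, rose. Gbp2 had 1 and 485 reads and a ratio of 9.19 (6.70 to 14.49), Gbp3 5 and 2159 reads and 9.02 (7.80 to 10.64), and Mx1 went from 0.568 to 276 CPM. The smallest ratio was 2.87 (2.59 to 3.16), for Ifi47. A set of 5 Gbp genes formed a run on chromosome 3 (142493978 to 142638008), at ratios from 6.10 to 9.19, and Irgm1, Tgtp2 and Ifi47 were in a run of 9 on chromosome 11 (48861968 to 49135387). These genes have near-identical neighbours, and no source used here says how reads shared between them were counted.

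Of 14 measured genes in a list of p200 family genes and DNA sensors 10 rose. That list does not hold every p200 gene of the run given below. Ifi202b had 3 and 6237 reads and a log2 ratio of 11.29 (9.74 to 13.57), Ifi209 2 and 1638 reads and Ifi211 2 and 1268 reads. The 11 neighbours from Ifi206 to Ifi202b on chromosome 1 (173468485 to 173982744) were the longest run of higher genes, at ratios from 1.33 to 11.29. The cytosolic DNA sensor cGAS (Mb21d1), its adaptor STING (Tmem173) and the inflammasome sensor Aim2 were not called, at 0.16, 0.47 and 0.70. Neighbouring p200 genes are similar copies, so the split of reads among them is uncertain. Of 14 measured genes of the RNA sensing list 10 rose as well: Ifih1 (MDA5) went from 3.30 to 297 CPM and Ddx58 (RIG-I) from 26.0 to 392 CPM, while their adaptor Mavs was not called at -0.73.

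Of 13 measured genes of the list of OAS genes and related RNA-response genes 11 rose, led by the Z-nucleic acid sensor Zbp1, from 0.568 to 329 CPM; Oasl2 and Oasl1 followed, with log2 ratios of 6.47 and 6.01. In the Schlafen list 7 of 8 rose, with Slfn4 from 58.2 to 2388 CPM and Slfn1 with 0 and 2122 reads, at least 851-fold higher; Slfn3 was the exception at 0.08, and reads shared among the similar Schlafen copies may have been split or dropped. PARP genes gave 10 higher and 0 lower of 16 measured. Parp14 rose from 31.6 to 691 CPM, and Parp1, the DNA damage enzyme, was not called at -0.95. Of 26 TRIM ligases 9 rose and 4 fell, against 11.6% and 12% of all measured genes.

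Antigen presentation by class I, which shows peptides from inside the cell, and by class II, which shows ingested ones, was counted apart. Of 17 measured class I and peptide loading genes 10 rose and 0 fell: the peptide transporter Tap1 went from 25.3 to 255 CPM, beta-2 microglobulin (B2m) from 423 to 1127 CPM and H2-D1 from 179 to 444 CPM. The 3 immunoproteasome subunits Psmb8, Psmb9 and Psmb10 had log2 ratios of 1.40, 1.58 and 1.65, while the standard subunits Psmb5, Psmb6 and Psmb7 were not called, at 0.68, 0.66 and 0.49. Of 9 measured class II pathway genes 1 rose and 4 fell. The invariant chain Cd74 went from 246 to 720.4 CPM, and Ifi30, a lysosomal thiol reductase, fell from 70.4 to 15.2 CPM. H2-DMa, H2-Eb1 and H2-Oa fell from low levels; H2-Eb1 had 56 and 11 reads. H2-Aa, under the filter, went from 54 reads in KO to 8 in KO_LPS, and the wild-type libraries held 0.

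Among 19 measured genes in a list of costimulatory and checkpoint ligands, which also holds receptors, 12 rose and 2 fell. The checkpoint ligand Cd274 (PD-L1) went from 4.23 to 46.1 CPM and the costimulatory Cd80 and Cd86 had log2 ratios of 2.14 and 3.01, while Havcr2 (TIM-3) fell from 28.0 to 3.97 CPM. Of 20 measured genes in a list of C-type lectin and sialic acid receptors, which also holds Trem2, 10 rose (6 with total-count scaling) and 5 fell. Clec4e (Mincle) went from 59 to 486 CPM, and Trem2 and Cd33 fell from 219 to 30.9 CPM and from 150.3 to 21.7 CPM. The scavenger receptor Msr1 went from 2.07 to 394 CPM and the apoptotic cell receptor Axl from 5.01 to 119 CPM. Cd24a, a small glycosylated surface protein, had a log2 ratio of -4.84 (-5.09 to -4.61), from 262 to 9.13 CPM; wild type gave -4.94.

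Of 20 measured integrin and adhesion genes 9 rose and 5 fell, with Itgal (the LFA-1 alpha chain) from 28.9 to 352 CPM and Itga5 from 43.1 to 418 CPM. Of 16 Fc gamma receptor and kinase genes 8 rose and 2 fell, with the inhibitory Fcgr2b from 53.2 to 332 CPM. Over all measured genes 11.6% rose and 12% fell. The macrophage identity list gave 6 higher and 3 lower of 20 (5 lower with total-count scaling), the lower ones being Trem2, Gpnmb and Laptm5. Csf1r, the M-CSF receptor, was not called at -0.61 (-0.65 to -0.57), and wild type gave 0.03.

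Several enzymes of inflammatory metabolism were under 10 CPM before LPS. Nos2, the inducible nitric oxide synthase, went from 1.14 to 817 CPM, a log2 ratio of 9.49 (8.89 to 10.16); Ass1, which regenerates its substrate arginine, and Gch1, which starts synthesis of its cofactor, had ratios of 5.47 and 3.94. Ptgs2, the inducible cyclooxygenase, went from 2.07 to 2379 CPM, and the constitutive Ptgs1 fell from 118 to 16.1 CPM. The leukotriene enzymes Alox5 and Ltc4s fell with ratios of -2.42 and -3.06. In the itaconate and citric acid cycle list Acod1 was the 1 higher gene of 28 measured, and Idh2 and Mdh1 (4 genes with total-count scaling) fell with ratios of -1.02 and -1.02, just past 2-fold. The list's median was -0.24.

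Of 30 measured glycolysis genes 8 rose and 1 fell (5 and 2 with total-count scaling), with the glucose transporter Slc2a1 from 238 to 1029 CPM and hexokinase Hk2 from 159.7 to 581 CPM; Pfkm fell. Of 21 measured NRF2 target genes 7 rose, among them Hmox1, which breaks down haem, from 64.9 to 1164 CPM and the cystine transporter Slc7a11 from 47.7 to 541 CPM. Lcn2, which binds bacterial siderophores, had 1 and 3471 reads, a log2 ratio of 12.03 (9.55 to 17.33). Of 35 cholesterol and fatty acid synthesis genes 0 rose and 6 fell, against 12% lower of all measured genes and at a list median of -0.34, with Scd2, a desaturase, from 885 to 389 CPM. All 54 nuclear respiratory chain subunits and all 12 measured mitochondrially encoded proteins were within the not called class, at medians of -0.20 and 0.21; total-count scaling turns the sign of the latter and puts 1 nuclear subunit past 2-fold lower.

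Of 28 measured genes of the unfolded protein and integrated stress responses 14 rose and 0 fell. Trib3 and Chac1, targets of the stress factors ATF4 and CHOP, went from 7.59 to 93.1 CPM and from 5.78 to 60.4 CPM, Ddit3, which encodes CHOP, from 8.31 to 33.7 CPM, and the chaperone Hspa5 (BiP) from 1702 to 4156 CPM. Aminoacyl-tRNA synthetases rose in 5 of 20 (2 with total-count scaling), with Sars first at 1.43 (1.39 to 1.48). The 14 measured heat shock genes had 0 calls in either direction, at a median of 0.41.

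Mitosis was the 1 list of 65 in which all measured members were lower: all 40 fell, against 12% of all measured genes, with a median log2 ratio of -1.89 and a range from -4.16 to -1.18. Top2a, the topoisomerase that untangles chromosomes, went from 518 to 118 CPM, a ratio of -2.14 (-2.21 to -2.07); cyclin A2 (Ccna2) went from 281 to 53.0 CPM and the motor Kif11 from 196 to 30.1 CPM. Ankle1, a nuclease of the midbody, fell from 28.9 to 1.61 CPM. In wild type the list also fell in 40 of 40, at a median of -1.99.

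DNA replication genes fell in 27 of 43 measured, at a median of -1.11, and double-strand break repair genes in 20 of 34, at -1.30; 0 rose in either list. Thymidine kinase (Tk1) went from 152 to 21.9 CPM and the helicase subunit Mcm7 from 286 to 111 CPM, and Brca2 from 56.3 to 11.5 CPM. Among 26 measured G1 regulators 9 fell, including the factors E2f2, E2f7 and E2f8 at ratios of -2.57, -2.16 and -2.13. The 3 that rose were the CDK inhibitor Cdkn1a (p21), from 159 to 559.6 CPM, the p53 ligase Mdm2, from 95.1 to 237 CPM, and Ccng2, from 11.9 to 45.3 CPM.

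**Figure D5:**
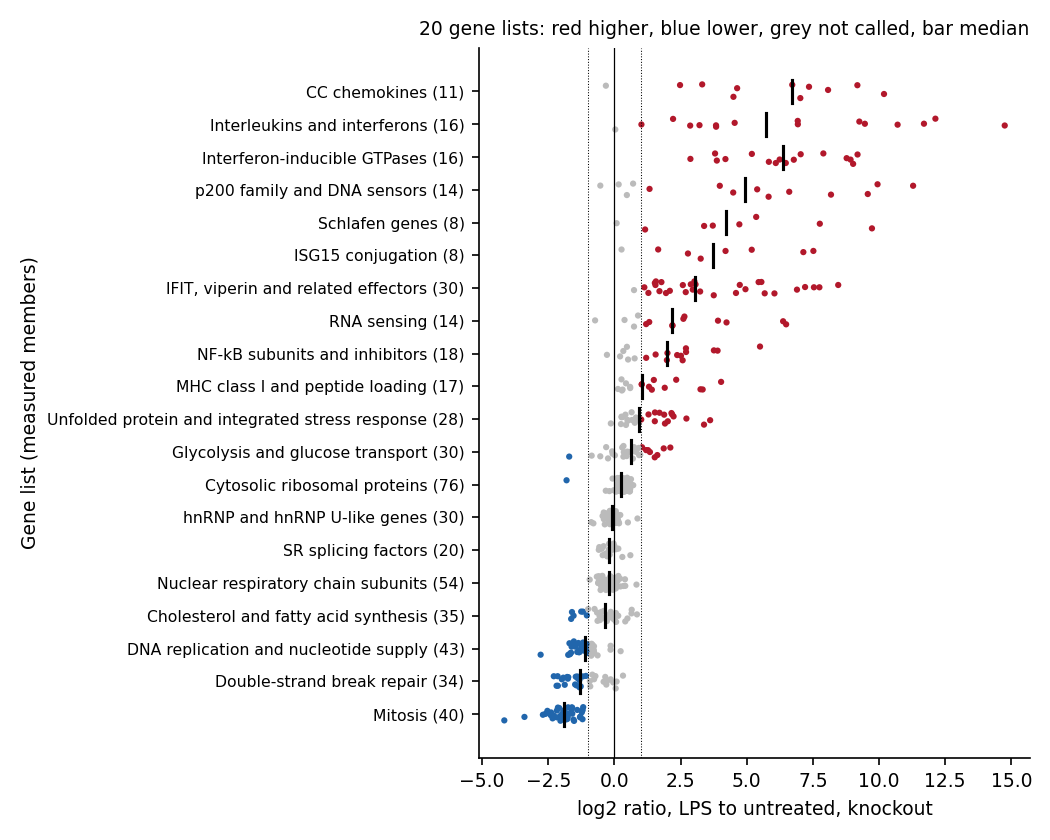
Each point is a measured member of 1 of 20 gene lists, picked from 65 after their values were seen, at its log2 ratio of LPS to untreated in the knockout; red is higher, blue lower and grey not called, black bars are medians and dotted lines mark 2-fold. Mitosis lies wholly below 2-fold lower, while the hnRNP, SR and respiratory chain lists hold grey points alone.

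The deleted gene belongs to the hnRNP class of RNA-binding proteins. Of 30 measured hnRNP and hnRNP U-like genes 0 rose and 0 fell, with a range from -0.88 (Hnrnpa3) to 0.87 (Rbmx) and a median of -0.11; total-count scaling put 2 of them past 2-fold lower. The 20 SR splicing genes gave 0 calls, at a median of -0.21. Of 27 measured regulators of cytokine mRNA stability 5 rose and 1 fell, against 11.6% and 12% of all measured genes and at a list median of -0.03: the nuclease Zc3h12a (Regnase-1) went from 9.29 to 124 CPM, Zfp36 (tristetraprolin) from 27.4 to 281 CPM and Arid5a, which protects Il6 mRNA, from 8.52 to 51.4 CPM, while Zfp36l2 fell from 143 to 43.6 CPM. With total-count scaling 3 members of that list fell.

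Of 76 cytosolic ribosomal protein genes 75 were not called, at a median of 0.25 that total-count scaling takes to -0.06. The 1 that fell was Rpl30, with 504, 1219, 757 and 289 reads in WT, KO, WT_LPS and KO_LPS. Its log2 ratio was -1.81 (-2.0 to -1.62) in the knockout and 0.89 in wild type, a difference of -2.70 (-2.95 to -2.46). Ribosomal protein genes have many processed pseudogenes, and reads shared with those may have been split or dropped.

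Of 29 measured BCL2 family and caspase genes 11 rose and 3 fell, against 11.6% and 12% of all measured genes. The survival genes Bcl2a1d, Cflar, Bcl2l1 and Mcl1 went from 31.6 to 379 CPM, from 64.8 to 425 CPM, from 59.6 to 324 CPM and from 581 to 1485 CPM. The pro-death Pmaip1 and Bmf fell, at -1.45 and -1.37, and Bcl2l11, also pro-death, rose, at 1.44 (1.23 to 1.65) against 0.46 in wild type. The inflammasome sensor Nlrp3 went from 88.0 to 551 CPM and the necroptosis effector Mlkl from 14.2 to 95.8 CPM. The Bcl2a1 copies are near-identical, so the split of reads among them is uncertain.

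By gene class, 11.3% of 10334 protein-coding genes were higher and 12.1% lower. Antisense genes gave 18.1% and 10.6% of 160, lincRNAs 15.7% and 19.1% of 178, and processed transcripts 14.2% and 21.2% of 113. Processed pseudogenes gave 10.2% and 4.32% of 532. The classes differed in abundance, with a median level of 39.4 CPM over the knockout pair for protein-coding genes, 3.15 for lincRNAs and 1.76 for antisense genes; the part of abundance in these shares was not tested.

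Among lincRNAs, Mir155hg, the host gene of a microRNA induced in inflammation, had 43 and 1602 reads and a log2 ratio of 5.49 (5.05 to 5.96), and Ptgs2os2, at the Ptgs2 locus, had 10 and 296 reads. The antisense gene Il1bos had 0 and 70 reads, at least 28-fold higher. It lies opposite Il1b, and no source used here says if strand was used in counting, so its reads cannot be told apart from those of Il1b. D430036J16Rik, antisense, fell from 316 to 16 reads, and the processed transcript Eldr from 137 to 10 reads. The lowest ratio among these classes was that of 2810030D12Rik, a bidirectional promoter transcript, with 58 and 1 reads.

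Of protein-coding genes with a mean of at least 5 CPM, the 12 lowest ratios belonged to Klhl30, S1pr1, Cd24a, Cd101, Neurl1b, Ranbp3l, Cldn11, Ankle1, Acss1, Igf1, Myh7b and Depdc1b. Klhl30, a kelch-family gene, fell from 37.7 to 0.994 CPM, a log2 ratio of -5.25 (-6.06 to -4.54). Ranbp3l fell from 272 to 12.6 CPM, a ratio of -4.43 (-4.64 to -4.23), where wild type gave -2.78. Igf1, the insulin-like growth factor, fell from 49.4 to 3.35 CPM, and Cldn11, a tight junction claudin, from 61.7 to 3.17 CPM.

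Most calls were shared with wild type. Of genes higher in the knockout 83.6% were also higher in wild type, and these were 85.9% of the wild-type ones; for lower genes the shares were 71.2% and 84.3%. Of the 220 genes higher in the knockout and not called in wild type, 205 had a wild-type ratio above 0, and for 32 the difference between genotypes was at least 1 on the log2 scale with an interval off 0. Of the 401 lower in the knockout and not called in wild type, 376 had a wild-type ratio below 0 and 82 passed the same difference. These differences rest on single libraries and no test was possible.

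Among genes with a mean of at least 5 CPM, the 6 largest differences with an interval off 0, higher in the knockout and not called in wild type, were those of Gm10060, Rab11fip5, Cd83, Fam161a, Bcl2l11 and F9. The last 2, at 0.97 and 0.95, were under 1. Cd83, a marker of activated antigen-presenting cells, had 422, 543, 478 and 1347 reads in WT, KO, WT_LPS and KO_LPS, a log2 ratio of 1.58 (1.43 to 1.72) in the knockout and 0.49 in wild type. Rab11fip5, an endosomal trafficking gene, gave 2.10 (1.94 to 2.26) and 0.98. By the same rule the 6 on the lower side were Rpl30, Angptl2, Dmpk, Sumo2, Zdhhc14 and Selplg. Angptl2, a secreted angiopoietin-like protein, had 633, 324, 410 and 43 reads, with ratios of -2.65 (-3.14 to -2.18) and -0.32. Sumo2, the ubiquitin-like modifier, had 973, 1727, 722 and 527 reads, and its ratio of -1.45 (-1.59 to -1.30) in the knockout stood against -0.12 in wild type.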

How the data were processed

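RNA from 4 libraries of RAW 264.7 cells, 1 per group, was sequenced. The deposited gene tables hold read counts and, beside them, FPKM values that the authors scaled by gene length and library, per the file headers. Tools listed in the submitters' processing notes are featureCounts 1.5.0-p3, HISAT2 2.0.5 and CASAVA 1.8, with builds mm10 and GRCm38; strand setting and treatment of multiply mapped reads are in no source used here.

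Counts were scaled by TMM over the 4 libraries (edgeR 4.0.16, R 4.3.3). Genes with a mean of at least 1 CPM were kept. Ratios of KO_LPS to KO were given exact conditional (Clopper-Pearson) 95% intervals. Differences of log2 ratios between genotypes were given approximate 95% intervals by the delta method, a normal approximation from the 4 counts. Reads carry no molecular identifiers, and 3 reads correspond to 0.155 CPM in KO and 0.186 CPM in KO_LPS. A call needed 2-fold and an interval off no change. The procedure was tested on simulated data that held counting noise alone, with the scaling factors taken as known. That test did not cover the spread between cultures or errors of scaling. Coordinates are those of the deposited tables (GRCm38), and promoters are from RefSeq (GRCm38.p6).

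The response described, the 65 gene lists and the tests were chosen with earlier results of these data known. A rule set which genes could be named: all measured members of lists of up to 25 and the 8 largest ratios in longer lists. It also took the 12 highest and 12 lowest protein-coding ratios at a mean of 5 CPM or more, and the 10 largest gains and losses. The 10 highest levels per kilobase, the 4 extremes each way of other gene classes and genes moving oppositely in wild type were included. Last came the 6 largest differences each way from wild type among genes not called there. These needed a mean of 5 CPM or more and an interval off 0. Not every gene that met the rule is named, and the choice among them was made with values known. Bmf, Cdc20, Cdk1, Cebpa, Egr3, Mcl1, Mcm7, Mdm2, Myd88, Tbk1 and Top2a fall outside the rule and were named after their values were seen. The same holds for Lst1, Nfkbil1 and Wfdc17, named as members of runs. Alternatives were DESeq2 size factors (DESeq2 1.42.0), total counts, TMM over the knockout pair, no filter, a 10 CPM filter, intervals lying wholly beyond 2-fold, a 1.5-fold rule, an interval widened by an assumed coefficient of variation of 0.2, protein-coding genes alone, and the deposited FPKM with a pseudocount of 1.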

Additional observations from a re-analysis of the deposited data

Results flagged for a closer look

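For 3 genes the knockout and wild type were called in opposite directions. The difference itself was not tested, since each group is 1 library, and all 3 rest on few reads. Gm6257, a processed pseudogene on chromosome 9 (63443166 to 63444075), had 43, 15, 7 and 25 reads in WT, KO, WT_LPS and KO_LPS, and its log2 ratio was 3.315 higher in the knockout than in wild type. Gm11007, a protein-coding gene on chromosome 2, had 8, 32, 20 and 11 reads, a difference of -2.903. Gm38357, a transcript listed as awaiting experimental evidence on chromosome 3, had 33, 63, 54 and 26 reads, a difference of -2.028.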

How the results depend on the processing

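In the knockout, the number of genes higher stayed within 1.5 times of 1345 in every alternative except the 1.5-fold rule, which gave 2247. The number lower, 1398 here, was 2156 with total counts, 2448 with the 1.5-fold rule, 793 with a filter of 10 CPM, 863 with the whole interval beyond 2-fold and 766 with the deposited FPKM. Total counts kept 989 of the higher and all 1398 lower genes. The median of the C-type lectin and sialic acid receptor list, 0.93 here, became -0.0489 with no filter, which adds members with few reads. Signs were compared for the genes that met the naming rule, where the alternative gave a value. No called gene among these changed sign under another scaling or the deposited FPKM. Genes named outside the rule were not in this check. Among the genes that met the rule, the ratios of 603 lay outside the counting interval given here with total counts and 263 within it. With FPKM these were 303 and 496, and the rest had no value. No paired analysis was possible because each group holds 1 library. No replicate could be left out for the same reason. Counting error limits genes of few reads, and the spread between cultures is not known.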

Other observations

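Secreted proteases and their inhibitors moved in both directions. Of 21 measured members 13 rose and 5 fell, against 11.6% and 12% of all measured genes. Mmp9, a matrix metalloprotease, had 4 and 659 reads in KO and KO_LPS, and its inhibitor Timp1 had 4 and 338 reads. The urokinase receptor Plaur went from 20.8 to 362 CPM, while urokinase itself (Plau) fell from 194 to 61.7 CPM. Of 38 measured cathepsins and lysosomal enzymes 2 rose and 8 fell, at a list median of 0.00279 and against 11.6% and 12% of all measured genes, among them Ctsh, from 37.0 to 8.51 CPM, and the heparan sulfate enzyme Sgsh, from 21.7 to 5.84 CPM.

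Of 14 measured iron handling genes 6 rose and 1 fell, with the ferroxidase ceruloplasmin (Cp) from 67.4 to 476 CPM, the iron importer Slc11a2 from 35.6 to 143 CPM and the reductase Steap3 falling from 31.3 to 5.90 CPM. Of 14 MAP kinase phosphatase genes 5 rose and 2 fell, led by Dusp5, from 3.87 to 71.8 CPM. The shares over all measured genes were 11.6% higher and 12% lower. Among 26 cytokine and growth factor receptor genes 6 rose and 2 fell: Il10ra, the IL-10 receptor chain, went from 8.11 to 43.3 CPM and Il6ra, the IL-6 receptor chain, fell from 97.6 to 32.9 CPM. The sterol exporter Abca1 went from 12.3 to 61.3 CPM and the oxidase subunit Cybb from 879 to 2211 CPM.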
